A study of Homo sapiens with 12 samples.

Results

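Gene expression was compared between senescent human fibroblasts that had received either of a pair of mitochondrial carrier inhibitors, UK5099 or CTPI2. The members were the 3 libraries of the Sen(IR)+UK5099 group and the 3 libraries of the Sen(IR)+CTPI2 group, chosen by their labels, out of 12 libraries in the series. All genes of the raw count table were used. MRC5, an established human embryonic lung fibroblast line, was the only cell line, so every value comes from 1 line. Cells of both groups, and those of the untreated Sen(IR) group, had received 20 Gy of X-rays to make them senescent. The remaining group, Prol, was proliferating cells. UK5099 was used at 100 μM and CTPI2 at 15 or 30 μM, and the sources used here do not say which CTPI2 dose was sequenced. Both were added 1 day after irradiation and kept in the medium for 12 days. The doses were not matched, so the values below compare the treatments as they were given and not the compounds at equal dose. The labels number the libraries of a group 1 to 3. The p-values measure the spread between libraries of a group, estimated from all 12 libraries in a single fit.

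As background, pyruvate made by glycolysis enters mitochondria through the mitochondrial pyruvate carrier, a complex of MPC1 and MPC2, which UK5099 blocks. Inside, pyruvate becomes acetyl-CoA and then citrate, and the citrate carrier SLC25A1, the target of CTPI2, exports citrate to the cytosol, where ATP citrate lyase (ACLY) turns it back into acetyl-CoA. Acetyl-CoA is the donor for histone acetylation and for lipid synthesis. Senescent fibroblasts no longer divide, and they secrete chemokines, interleukins, growth factors and proteases, together called the senescence-associated secretory phenotype (SASP). The comparison asks where the expression of senescent cells differs between treatment with UK5099 and treatment with CTPI2. Effects of the compound, its dose and the block of its carrier cannot be told apart here.

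Library totals were 22986814 to 25848472 counts with UK5099 and 22625528 to 24246769 counts with CTPI2. The mitochondrial share of the counts was 3.81 to 4.23% in UK5099 libraries and 2.39 to 3.28% in CTPI2 libraries. The spread between replicates, estimated over all 12 libraries of the series, was small, with a biological coefficient of variation of 6.12%. Of 12 fibroblast markers, all 12 were detected, and their summed level was 10982 to 11473 counts per 1000000 (CPM) with UK5099 and 18342 to 20143 CPM with CTPI2. Of 7 epithelial markers, 5 never exceeded 8 counts in a library, CDH1 among them, and the list summed to at most 2.15 CPM. Of 6 leukocyte markers, 4 stayed within 8 counts, PTPRC and CD3E among them, and the list summed to 4.11 to 4.22 CPM with UK5099 and 5.20 to 6.85 CPM with CTPI2. PECAM1 and CDH5 of the 5 endothelial markers also stayed within 8 counts, and most of that list's summed level (207 to 237 CPM with UK5099, 300.03 to 330 CPM with CTPI2) was TEK. In bulk samples, fewer cells of a type and less RNA per cell cannot be told apart.

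UK5099 libraries differed from CTPI2 libraries in many genes, and the large differences were mostly in the direction of less RNA with UK5099. Of 16251 genes tested, 3236 (19.9%) were called, which means an edgeR adjusted p under 0.05 and an absolute log2 fold change over 0.5. There were 1332 genes higher with UK5099 (8.20% of those tested) and 1904 lower (11.7%). The differences were unequal in size: the median log2 fold change was 0.79 among the genes called higher and −1.06 among those called lower. Changes of more than 2 on the log2 scale were seen in 45 genes higher and 413 genes lower with UK5099, and changes of more than 5 in 0 higher and 34 lower. For 94 of the genes called lower, every UK5099 library had at most 3 counts, the floor used here, and 10 genes called higher were at that floor in every CTPI2 library. Such genes passed the filter on low counts only through libraries above the floor, so their direction was fixed in advance. The medians and the counts by size above use the fitted changes of these genes too, although their size is known only as a bound. No overlap between UK5099 and CTPI2 libraries was seen for 8715 genes (53.6%), which include 3152 of the genes called. At the other end, 7463 genes (45.9%) had a 95% interval of the log2 fold change that lay wholly within 0.5 of 0 in both directions. Protein-coding genes made up 13312 of those tested (1035 higher, 1602 lower) and long noncoding RNAs 1850 (187 higher, 230 lower).

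**Figure D1:**
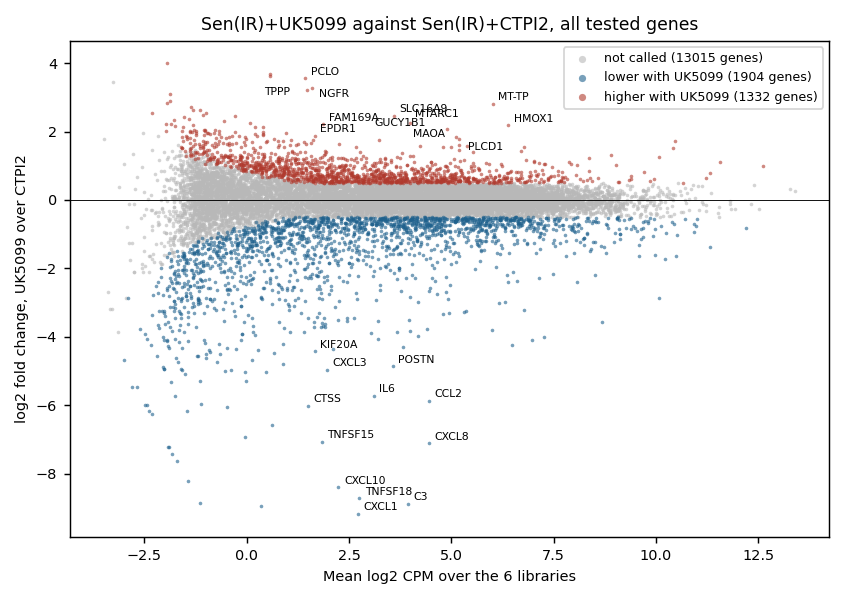
Each point is 1 of the 16251 tested genes, with its mean log2 CPM over the 6 libraries on the x axis and its log2 fold change (UK5099 over CTPI2) on the y axis; blue and red mark the 1904 genes lower and the 1332 genes higher with UK5099. The points below 0 reach −9.18 (CXCL1), while the labelled genes above 0 reach 3.55 (PCLO).

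The genes of the carriers themselves differed little. MPC1 stood at 19.4, 19.2 and 18.02 CPM in the UK5099 libraries and at 16.5, 16.7 and 18.96 CPM in the CTPI2 libraries, and the groups overlapped (log2 fold change 0.12, 95% interval −0.07 to 0.31, edgeR adjusted p 0.308). MPC2 also overlapped (−0.05, −0.20 to 0.09, edgeR adjusted p 0.576). SLC25A1 was at 111, 118 and 106 CPM with UK5099 and 95.99, 100 and 97.2 CPM with CTPI2. That difference passed the adjusted p but not the fold limit (log2 fold change 0.19 with SE 0.0569, adjusted p 0.00850 by edgeR). ACLY was lower by less than the fold limit as well (log2 fold change −0.22 with SE 0.0469, adjusted p 4.70e-04 by edgeR). For ACSS2, the enzyme that makes acetyl-CoA from acetate, the interval was −0.32 to −0.02 (edgeR adjusted p 0.0674). Since the inhibitors act on the proteins, these RNA levels do not show whether the carriers were blocked.

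Of 27 genes of the pyruvate, citrate and acetyl-CoA route, 7 were called (25.9%, against 19.9% of all genes tested). Of these, 1 was higher and 6 lower with UK5099, and 17 of the 27 had intervals within the fold limit. The genes lower included lactate dehydrogenase A (LDHA), which interconverts pyruvate and lactate, at 366, 394 and 365 CPM with UK5099 against 847, 835 and 802 CPM with CTPI2 (log2 fold change −1.14 with SE 0.0497, adjusted p 2.54e-14 by edgeR). The lactate exporter SLC16A3 went the same way (log2 fold change −0.74 with SE 0.0638, adjusted p 3.22e-09 by edgeR), as did PDHX, a structural part of the pyruvate dehydrogenase complex (log2 fold change −0.74 with SE 0.0564, adjusted p 4.09e-10 by edgeR). PDK4, a kinase that switches this complex off, was at 6.95, 9.05 and 7.29 CPM with UK5099 and 13.02, 14.03 and 10.9 CPM with CTPI2 (log2 fold change −0.70 with SE 0.145, adjusted p 4.37e-04 by edgeR). The gene called higher was pyruvate carboxylase (PC), which makes oxaloacetate from pyruvate, at 14.4, 15.6 and 14.5 CPM with UK5099 and 8.16, 9.203 and 7.58 CPM with CTPI2 (log2 fold change 0.84 with SE 0.103, adjusted p 7.68e-07 by edgeR). For each of these 5 genes the groups did not overlap, which was also so for 53.6% of all genes tested.

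In glycolysis and glucose uptake, 11 of 23 genes were called (47.8%, against 19.9% of all genes tested), 3 higher and 8 lower. Hexokinase 2 (HK2), which traps glucose in the cell, was at 78.7, 74.3 and 70.3 CPM with UK5099 and 171, 183 and 181 CPM with CTPI2 (log2 fold change −1.26 with SE 0.0619, adjusted p 2.15e-13 by edgeR). Aldolase A (ALDOA) and enolase 1 (ENO1) were also lower (−0.84 and −0.83 on the log2 scale), although 54.24% of the exon bases of ALDOA are shared with other genes. PFKFB2, a regulator of glycolytic flux, was higher (log2 fold change 0.67 with SE 0.110, adjusted p 3.01e-05 by edgeR). TXNIP, an inhibitor of glucose uptake, was just past the fold limit (log2 fold change 0.51 with SE 0.0513, adjusted p 4.16e-08 by edgeR) and fell under it without any 1 of 3 libraries, at 0.499 without CTPI2 replicate 1, 0.488 without CTPI2 replicate 3 and 0.467 without UK5099 replicate 1. In the tricarboxylic acid (TCA) cycle and glutamine genes, 3 of 28 were called (10.7%, against 19.9% of all genes tested). The glutamine synthetase GLUL was among the genes higher with UK5099 (log2 fold change 0.74 with SE 0.0563, adjusted p 3.87e-10 by edgeR). PCK2, the gene lower, missed the fold limit without CTPI2 replicate 2 (−0.43) or UK5099 replicate 3 (−0.44).

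SASP genes held some of the largest differences of the comparison. Chemokines recruit neutrophils, monocytes and T cells. Of 24 listed, 17 passed the filter on low counts, of which 15 were lower and 0 higher with UK5099 (88.2% called, against 19.9% of all genes tested). Their median log2 fold change was −5.02, or −4.28 when the 5 genes at the floor take their bound, against 0.01 over all genes tested. Those 5 passed the filter only through libraries above the floor, so their direction was fixed in advance. CXCL1 (ENSG00000163739, chromosome 4, 73869393 to 73871308), a neutrophil attractant, was at 0.207, 0.223 and 0.271 CPM with UK5099 and at 141, 123 and 152 CPM with CTPI2. This is the largest difference of any gene named by the rule (log2 fold change −9.18 with SE 0.164, adjusted p 2.57e-21 by edgeR). For comparison, the mean was 0.308 ± 0.232 CPM in Prol and 295 ± 4.89 CPM in Sen(IR) (SD, n = 3). The UK5099 libraries thus lay near the mean of proliferating cells, and the CTPI2 libraries between them and the untreated senescent cells.

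CXCL8 (ENSG00000169429, chromosome 4, 73740519 to 73743716), another neutrophil attractant, was at 2.03, 2.11 and 1.395 CPM with UK5099 and 258, 195 and 313 CPM with CTPI2, and CTPI2 replicate 2 was the lowest of its group. CXCL10 (ENSG00000169245, chromosome 4, 76021118 to 76023497), which attracts T cells and is induced by interferon, was at 0.331, 0.223 and 0.116 CPM with UK5099 and 82.3, 64.5 and 82.2 CPM with CTPI2 (log2 fold change −8.40 with SE 0.186, adjusted p 1.31e-19 by edgeR). CXCL3 (ENSG00000163734, chromosome 4, 74036589 to 74038807) was at 0.662, 0.816 and 0.504 CPM with UK5099 and 20.7, 17 and 24.5 CPM with CTPI2 (log2 fold change −4.96 with SE 0.172, adjusted p 4.42e-16 by edgeR). In these 3 genes no UK5099 library reached any CTPI2 library, which the rule that named them required. CXCL1 and CXCL3 are close relatives in sequence, so reads could be shared between such genes. CCL2 (ENSG00000108691, chromosome 17, 34255274 to 34257208), which attracts monocytes, was at 2.77, 3.08 and 2.64 CPM with UK5099 and 164, 158 and 177 CPM with CTPI2 (log2 fold change −5.87 with SE 0.0864, adjusted p 1.22e-22 by edgeR). Its level in Prol was 16.3 ± 1.402 CPM, above all 3 UK5099 libraries. CXCL6 and CCL20 were at the floor in every UK5099 library, which makes them at least 133-fold and 20.6-fold lower than with CTPI2 (edgeR adjusted p 2.31e-15 and 2.28e-09).

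Promoters of chemokine genes are shown since these genes moved together. NF-kB, the main transcription factor of inflammatory genes, binds a known decamer, which was searched on both strands in the RefSeq window from 250 bases before to 50 bases after the gene start (GRCh38.p14). It was found in 13.02% of the 11647 tested genes with a window, in 13.2% of the genes called lower and in 12.7% of those called higher. Of the chemokines tested, 13 had a window and 8 of them (61.5%) held the motif. The 150 bases upstream of the start of 4 genes lower with UK5099 are given on the coding strand of the gene, 5′ to 3′, with matches to the NF-kB motif in capitals. They are, in order, chr4:73869243-73869392 (plus strand), chr4:74038690-74038839 (minus), chr4:76023498-76023647 (minus) and chr7:22727050-22727199 (plus).
CXCL1: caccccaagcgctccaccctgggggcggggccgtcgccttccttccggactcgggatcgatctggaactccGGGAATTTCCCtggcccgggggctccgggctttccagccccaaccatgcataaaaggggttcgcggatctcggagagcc
CXCL3: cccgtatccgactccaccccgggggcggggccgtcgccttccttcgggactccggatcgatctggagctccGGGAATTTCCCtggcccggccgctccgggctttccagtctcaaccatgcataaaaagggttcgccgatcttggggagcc
CXCL10: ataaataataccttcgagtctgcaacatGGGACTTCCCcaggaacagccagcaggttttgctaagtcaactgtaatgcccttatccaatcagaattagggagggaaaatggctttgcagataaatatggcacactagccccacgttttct
IL6: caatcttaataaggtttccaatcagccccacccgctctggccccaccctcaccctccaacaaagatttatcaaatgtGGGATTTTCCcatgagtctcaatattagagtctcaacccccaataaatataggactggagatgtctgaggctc
The match begins 79 bases before the start in both CXCL1 and CXCL3, whose windows are identical at 129 of 150 positions (86.0%). It begins 122 bases before the start in CXCL10, which has another match further upstream, and 73 bases before the start in IL6. The CXCL8 window held no exact match to the NF-kB decamer. Near matches were not counted, so this does not show that the window lacks an NF-kB site. It held 1 match to the AP-1 motif TGANTCA, which begins at 137 bases upstream. That motif was in 4.86% of all windows, 7.74% of those of genes lower with UK5099 and 4 of the 13 chemokine windows. A match is a description of the letters and does not show that a factor was bound.

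Interleukins and colony-stimulating factors, which signal to immune cells, followed the chemokines. Of 20, 18 were tested, and 17 were lower with UK5099 and 0 higher (94.4% called, against 19.9% of all genes tested). The median was −2.38, or −1.70 with 3 genes at their bound. These 3 too passed the filter only through libraries above the floor. For the other lists the bound did not change the median. IL6 (ENSG00000136244, chromosome 7, 22725884 to 22732002; 9.91% of exon bases shared with other genes) was at 1.57, 1.11 and 0.814 CPM with UK5099 and 59.2, 56.9 and 68.1 CPM with CTPI2. Every UK5099 library lay below the Prol mean of 2.73 ± 0.804 CPM. IL1A, an early signal in the SASP, was at 0, 0.0742 and 0.233 CPM with UK5099 and 3.03, 1.61 and 2.77 CPM with CTPI2 (log2 fold change −4.50 with SE 0.471, adjusted p 6.91e-08 by edgeR). IL1B was at the floor with UK5099 and at least 59.2-fold lower than with CTPI2 (6.27, 5.98 and 8.53 CPM, edgeR adjusted p 1.20e-13). For CSF2 and CSF3, which were below 1 CPM also with CTPI2, the bounds were 3.199-fold and 2.84-fold.

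Ligands of the TNF superfamily, which act on T cells, gave some of the widest gaps. TNFSF18 (ENSG00000120337, chromosome 1, 173039202 to 173050941) was at 0.166, 0.482 and 0.233 CPM with UK5099 and 127, 118 and 140 CPM with CTPI2 (log2 fold change −8.72 with SE 0.139, adjusted p 4.49e-22 by edgeR). TNFSF15 (ENSG00000181634, chromosome 9, 114784652 to 114806039) was at 0.290, 0.482 and 0.0775 CPM with UK5099 and 38.2, 33.7 and 45.1 CPM with CTPI2 (log2 fold change −7.07 with SE 0.247, adjusted p 4.94e-16 by edgeR). In both, the UK5099 values lay below the Prol means of 1.88 ± 0.186 and 5.36 ± 1.77 CPM. Of 17 ligands and receptors tested, 10 were lower and 0 higher (58.8% called, against 19.9% of all genes tested). TNFSF14 was at least 11.2-fold lower.

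Among 21 subunits, feedback inhibitors and adhesion targets of NF-kB, 15 were lower and 1 higher with UK5099 (median −1.45). The share called was 76.2%, against 19.9% of all genes tested. VCAM1, an adhesion molecule for leukocytes, was at 44.7, 36.8 and 34.6 CPM with UK5099 and 617, 617 and 633 CPM with CTPI2 (log2 fold change −4.01 with SE 0.138, adjusted p 4.01e-16 by edgeR). The feedback inhibitor TNFAIP3 was at 1.95, 2.11 and 2.17 CPM with UK5099 and 32.98, 27.5 and 31.7 CPM with CTPI2 (log2 fold change −3.88 with SE 0.111, adjusted p 1.36e-17 by edgeR), and the survival factor BIRC3 was lower too (log2 fold change −3.87 with SE 0.235, adjusted p 8.75e-12 by edgeR). TNIP3 was the exception, at 1.24, 1.85 and 1.63 CPM with UK5099 and 0.658, 0.578 and 0.779 CPM with CTPI2 (log2 fold change 1.23 with SE 0.329, adjusted p 0.00419 by edgeR). The promoter motif was present in 9 of the 18 genes of this list with a window. Of 14 AP-1 and C/EBP factors, 7 were lower, led by FOS (−1.44, SE 0.348), MAFF (−1.32, SE 0.0823) and JUNB (−1.03, SE 0.0983), and 1 was higher (57.1% called). That one, FOSL2 (0.52, SE 0.0588), missed the fold limit without CTPI2 replicate 1 (0.499) or UK5099 replicate 3 (0.483).

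**Figure D2:**
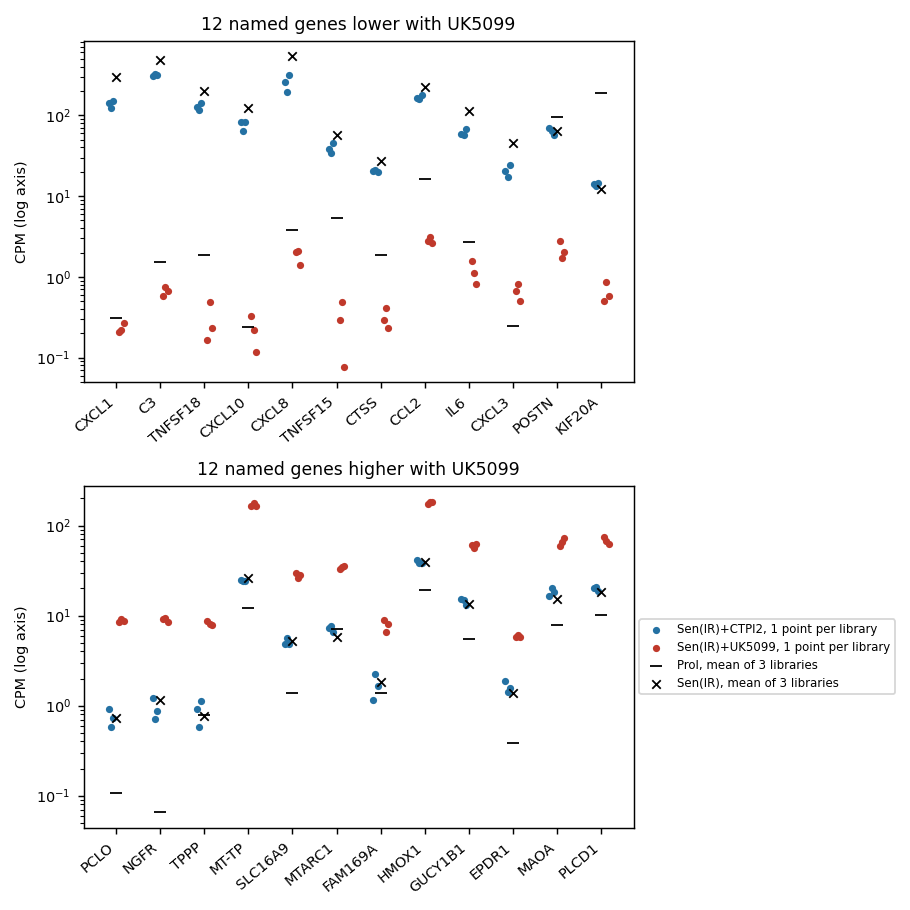
CPM (log axis) of the 12 genes named in each direction, with 1 point per library for CTPI2 (blue) and UK5099 (red) and the mean of 3 libraries for Prol (dash) and Sen(IR) (cross). The genes were chosen to have no overlap, so all UK5099 points lie below all CTPI2 points in the upper panel and above them in the lower. For 10 of the 12 genes in the upper panel, all UK5099 points also lie below the Prol mean.

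Interferon-stimulated genes, which respond to interferons and act against viruses, were mostly lower with UK5099. Of 38 tested, 33 were lower with UK5099 and 0 higher (median −1.63). The share called was 86.8%, against 19.9% of all genes tested. OAS1, a sensor that activates RNA decay, was at the floor with UK5099 and at 4.56, 3.51 and 3.42 CPM with CTPI2, at least 32.7-fold apart (edgeR adjusted p 9.79e-11). OASL had a bound of 14.8-fold. IFI44L was at 0.704, 0.0742 and 0.271 CPM with UK5099 and 9.03, 8.997 and 10.8 CPM with CTPI2 (log2 fold change −4.80 with SE 0.342, adjusted p 1.33e-10 by edgeR), and its Prol mean was 0.555 ± 0.114 CPM. The motif GAAANNGAA, part of the interferon response element, was in 6.51% of all windows, 9.92% of those of genes lower with UK5099, 4.77% of those of genes higher, and 19 of 30 windows (63.3%) of this list. In IFI44L it occurred 164 and 73 bases before the start, and the nearer match is in capitals in the 150 bases upstream (chr1:78620298-78620447, plus strand, GRCh38.p14).
IFI44L: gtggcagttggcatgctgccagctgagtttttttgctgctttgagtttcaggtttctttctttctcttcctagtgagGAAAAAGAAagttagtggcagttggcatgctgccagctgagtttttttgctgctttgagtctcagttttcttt
The OAS1 window held no match to these letters.

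Complement, acute-phase and protease genes gave a mixed picture with a few very large differences. C3 (ENSG00000125730, chromosome 19, 6677704 to 6730562; 11.72% of exon bases shared), the central complement protein, was at 0.580, 0.742 and 0.659 CPM with UK5099 and 306, 324 and 320 CPM with CTPI2 (log2 fold change −8.89 with SE 0.0970, adjusted p 4.13e-25 by edgeR). It had the smallest adjusted p of all genes named here. The UK5099 libraries lay below the Prol mean of 1.53 ± 0.328 CPM. PTX3, a secreted pattern-recognition protein, was at 22.5, 21.6 and 17.5 CPM with UK5099 and 383, 389 and 391.8 CPM with CTPI2 (log2 fold change −4.24 with SE 0.0749, adjusted p 2.40e-21 by edgeR). The complement and acute-phase list had 10 lower and 1 higher of 17 tested (64.7% called, against 19.9% of all genes tested). The gene higher, CFD, was under 1 CPM in every library and was not called without CTPI2 replicate 1 (edgeR adjusted p 0.0711) or replicate 3 (0.0535). Cathepsin S (CTSS, ENSG00000163131, chromosome 1, 150730079 to 150765957), a lysosomal protease that can be secreted, was at 0.290, 0.408 and 0.233 CPM with UK5099 and 20.6, 20.9 and 20.1 CPM with CTPI2 (log2 fold change −6.02 with SE 0.153, adjusted p 1.86e-18 by edgeR). Cathepsin K (CTSK), a collagen-degrading relative, was also lower (log2 fold change −2.69 with SE 0.0772, adjusted p 1.39e-17 by edgeR). Of the 29 lysosome and autophagy genes tested, CTSS and CTSK included, 4 were lower and 1 higher, and 22 had intervals within the fold limit. The share called was 17.2%, against 19.9% of all genes tested.

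In the matrix metalloproteinase and plasminogen list, 11 of 22 genes were lower and 2 higher with UK5099 (59.1% called, against 19.9% of all genes tested). PLAU, the urokinase that activates plasminogen, was at 129, 129 and 104 CPM with UK5099 and 1457, 1414 and 1368 CPM with CTPI2 (log2 fold change −3.55 with SE 0.070, adjusted p 1.56e-20 by edgeR), with 31.03% of its exon bases shared with another gene. The collagenase MMP1 was at 43.01, 46.4 and 39.6 CPM with UK5099 and 226, 219 and 219 CPM with CTPI2 (log2 fold change −2.36 with SE 0.0892, adjusted p 1.90e-15 by edgeR), and the protease inhibitor SERPINB2 was lower too (log2 fold change −3.84 with SE 0.144, adjusted p 1.88e-15 by edgeR). For PLAU and MMP1 the Prol means were 1549 ± 73.7 and 183 ± 30.9 CPM, so that UK5099 libraries lay below proliferating cells as well. MMP11 was higher (log2 fold change 0.72 with SE 0.140, adjusted p 2.36e-04 by edgeR). MMP24 was higher too, but missed the limit without CTPI2 replicate 1 (0.491). Of 14 prostaglandin genes, 7 were lower and 0 higher (50% called). Among them were PTGS2, the inducible cyclooxygenase, at 6.83, 8.16 and 8.56 CPM with UK5099 and 38.4, 34.05 and 42.04 CPM with CTPI2 (log2 fold change −2.28 with SE 0.103, adjusted p 4.79e-14 by edgeR), and the synthase PTGES (log2 fold change −1.67 with SE 0.142, adjusted p 2.50e-09 by edgeR).

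Among structural genes of the fibroblast, most of those called were lower. Of 49 collagen, elastic fibre and cross-linking genes, 26 were lower and 2 higher with UK5099 (median −0.61). The share called was 57.1%, against 19.9% of all genes tested. Periostin (POSTN, ENSG00000133110, chromosome 13, 37562583 to 37598844), a matrix protein of remodelling tissue, was at 2.82, 1.71 and 2.05 CPM with UK5099 and 69.5, 63.6 and 57.4 CPM with CTPI2 (log2 fold change −4.86 with SE 0.117, adjusted p 6.45e-19 by edgeR). It was also high in Prol (96.2 ± 6.94 CPM) and in Sen(IR) (64.2 ± 2.35 CPM), which makes the UK5099 group the only one of the 4 with a low level. COL11A1, a minor fibrillar collagen, was lower (log2 fold change −2.06 with SE 0.103, adjusted p 2.94e-13 by edgeR). COL12A1 was among the exceptions, at 1359, 1133 and 1174 CPM with UK5099 and 742, 846 and 809 CPM with CTPI2 (log2 fold change 0.61 with SE 0.0787, adjusted p 1.40e-06 by edgeR). The other, COL8A2, was not called without CTPI2 replicate 3 or UK5099 replicate 1 or 2 (edgeR adjusted p 0.0647, 0.0662 and 0.0626). Of 20 contractile genes, 11 were lower and 0 higher (55% called). ACTG2, a smooth muscle actin, was at 11.4, 11.3 and 9.11 CPM with UK5099 and 58.5, 55.3 and 51.7 CPM with CTPI2 (log2 fold change −2.38 with SE 0.0923, adjusted p 3.22e-15 by edgeR), and MYOCD, a co-activator of such genes, was lower as well (log2 fold change −3.10 with SE 0.253, adjusted p 1.32e-09 by edgeR). Of the 12 fibroblast markers, 7 were lower and 0 higher (58.3% called). FAP led them (log2 fold change −3.24 with SE 0.0625, adjusted p 1.16e-20 by edgeR), followed by COL3A1 (−1.63, SE 0.0924), whereas DCN (0.01, 95% interval −0.18 to 0.19), PDGFRB (0.10, −0.03 to 0.23) and LUM (0.13, −0.05 to 0.31) had intervals within the fold limit. The part of these markers in the other results was not tested.

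Secreted growth factors went the same way as the cytokines, with 28 lower and 1 higher of 45 (median −0.98), or 2 higher without CTPI2 replicate 2. The share called was 64.4%, against 19.9% of all genes tested. STC1, a secreted glycoprotein, was at 34.03, 40.4 and 32.4 CPM with UK5099 and 334, 319 and 348 CPM with CTPI2 (log2 fold change −3.23 with SE 0.0936, adjusted p 1.76e-17 by edgeR). The angiogenic factor VEGFA was counted in this list and also in that of hypoxia-inducible genes (6 lower and 0 higher of 18, 33.3% called). VEGFA was at 32.99, 31.97 and 31 CPM with UK5099 and 85.7, 79.1 and 71.96 CPM with CTPI2 (log2 fold change −1.30 with SE 0.0815, adjusted p 1.48e-11 by edgeR). The growth factor list's gene called higher was GREM1, a secreted antagonist of bone morphogenetic proteins, at 2521, 2542 and 2618 CPM with UK5099 and 751, 784 and 808 CPM with CTPI2 (log2 fold change 1.71 with SE 0.0865, adjusted p 3.42e-13 by edgeR). Its Prol mean of 1792 ± 344 CPM lay between the groups.

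**Figure D3:**
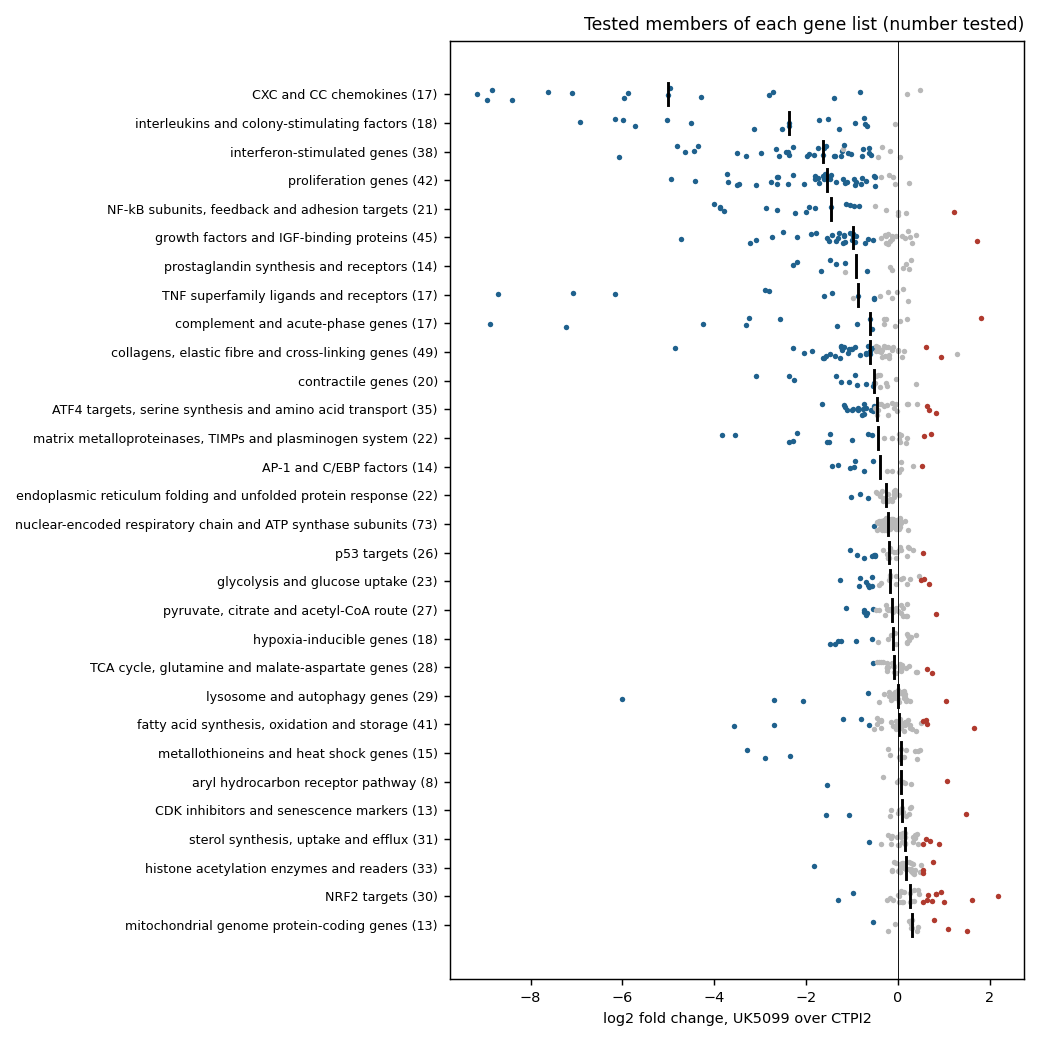
Each point is a tested member of a gene list, at its log2 fold change (UK5099 over CTPI2); blue is called lower, red called higher, grey not called, and the black bar is the median. Chemokines (median −5.02) stand at the top and mitochondrial genome protein-coding genes (0.29) at the bottom.

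Proliferation genes were low in all irradiated groups, and most were lower still with UK5099. Of 42 tested, 37 were lower and 0 higher (median −1.54). The share called was 88.1%, against 19.9% of all genes tested. KIF20A (ENSG00000112984, chromosome 5, 138178719 to 138187723; 5.35% of exon bases shared), a kinesin of cytokinesis, was at 0.497, 0.853 and 0.581 CPM with UK5099 and 14.2, 13.3 and 14.6 CPM with CTPI2 (log2 fold change −4.42 with SE 0.139, adjusted p 6.73e-17 by edgeR). Its mean was 188 ± 8.81 CPM in Prol and 12.4 ± 0.867 CPM in Sen(IR). The proliferation marker MKI67 was at 1.37, 0.630 and 0.853 CPM with UK5099 and 12.5, 11.1 and 13.8 CPM with CTPI2 (log2 fold change −3.72 with SE 0.20, adjusted p 9.77e-13 by edgeR), with 235 ± 32.3 CPM in Prol. The UK5099 libraries were thus furthest from proliferating cells for both genes. E2F8, a cell-cycle transcription factor, was at the floor with UK5099 and at least 4.79-fold lower. The letters TTTGAA, the core of the cell cycle homology region, were in 10.05% of all windows, 15.8% of those of genes lower with UK5099, 9.09% of those of genes higher and 12 of the 34 windows of this list (35.3%). MKI67 has matches 47 and 29 bases before its start, in capitals here (chr10:128126424-128126573, minus strand, GRCh38.p14).
MKI67: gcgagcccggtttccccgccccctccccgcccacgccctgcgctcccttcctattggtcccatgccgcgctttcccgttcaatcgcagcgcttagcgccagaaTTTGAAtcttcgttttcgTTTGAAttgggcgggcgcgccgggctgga

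The genes that mark senescence itself showed no single direction. CDKN1A, the p21 inhibitor that holds the arrest, was at 1124, 1112 and 1058 CPM with UK5099 and 1115, 1094 and 1056 CPM with CTPI2, and the groups overlapped (0.01, 95% interval −0.10 to 0.12, edgeR adjusted p 0.872). For CDKN2A, the p16 gene, the interval was −0.28 to 0.45 and the libraries overlapped. Lamin B1 (LMNB1), which is lost in senescence, was at 2.69, 2.52 and 2.33 CPM with UK5099 and 7.76, 8.01 and 6.58 CPM with CTPI2 (log2 fold change −1.57 with SE 0.118, adjusted p 3.50e-10 by edgeR), with 169 ± 11.6 CPM in Prol. HMGB2, a chromatin protein that is also lost in senescence, moved the other way, at 59.3, 60.04 and 62.01 CPM with UK5099 and 22.6, 21.05 and 21.7 CPM with CTPI2 (log2 fold change 1.47 with SE 0.0633, adjusted p 2.12e-14 by edgeR). Its Prol mean was 216 ± 13.3 CPM. Of the 13 genes of this list, 1 was higher and 2 lower (23.1% called, against 19.9% of all genes tested). Of 26 p53 targets, 7 were lower, led by the stress cytokine GDF15 (−1.05, SE 0.0892), and 1 was higher (30.8% called). With upper-quartile scaling or library totals alone, 4 were lower. That one, TP53INP1, missed the fold limit without UK5099 replicate 3 (0.482).

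Sen(IR) against Prol shares no library with the comparison of the inhibitors, so it gave an independent grouping of the genes, apart from the spread estimated in one fit. Of the 16251 genes, 4033 (24.8%) were higher and 3644 (22.4%) lower in Sen(IR). Among those higher in Sen(IR), 695 (17.2%) were lower and 565 (14.0%) higher with UK5099 than with CTPI2. Among those lower in Sen(IR), 612 (16.8%) were lower and 182 (4.99%) higher. The 8574 genes not called between Sen(IR) and Prol gave 6.96% lower and 6.82% higher. Genes lower with UK5099 were therefore found in like shares among those that rose and those that fell with senescence. Of the 695, the UK5099 mean was at or below the Prol mean for 304 (43.7%).

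**Figure D4:**
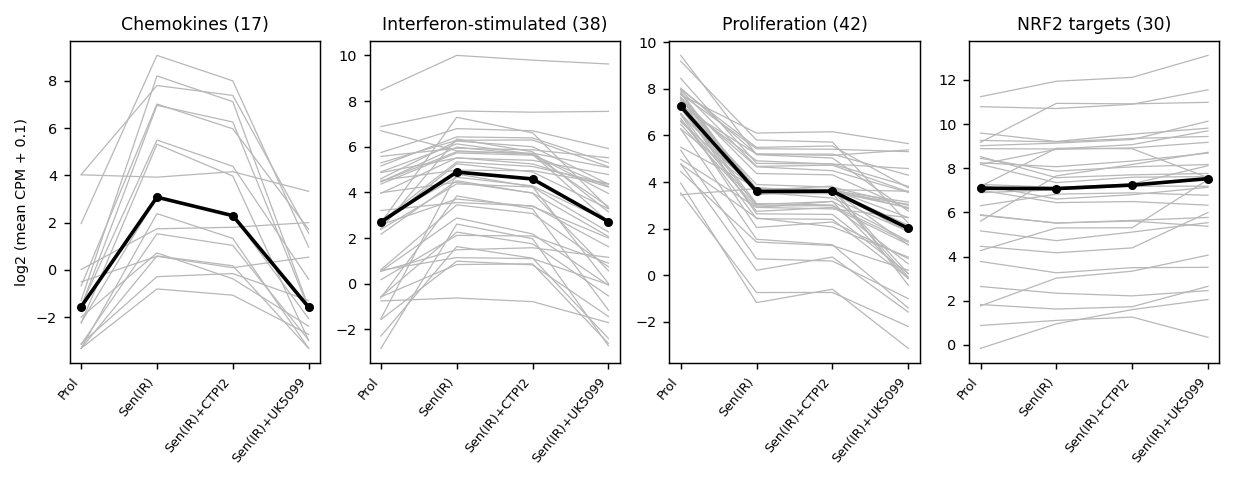
Group mean levels, as log2 of mean CPM plus 0.1, of the tested members of 4 lists (grey lines, 1 per gene) with their median (black) in the 4 groups. The chemokine median goes from −1.56 in Prol to 3.08 in Sen(IR), 2.29 with CTPI2 and −1.58 with UK5099, while the proliferation median goes from 7.25 to 3.59, 3.61 and 2.01.

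Among the genes with the largest differences in the other direction, PCLO (ENSG00000186472, chromosome 7, 82754012 to 83162930), a scaffold protein of the synapse, was at 8.49, 9.12 and 8.68 CPM with UK5099 and 0.921, 0.578 and 0.736 CPM with CTPI2 (log2 fold change 3.55 with SE 0.224, adjusted p 1.69e-11 by edgeR). NGFR (ENSG00000064300, chromosome 17, 49495293 to 49515008), a receptor for neurotrophins, was at 9.15, 9.35 and 8.56 CPM with UK5099 and 1.23, 0.702 and 0.866 CPM with CTPI2 (log2 fold change 3.27 with SE 0.220, adjusted p 4.85e-11 by edgeR), with 27.19% of its exon bases shared, in part with its antisense gene. TPPP (ENSG00000171368, chromosome 5, 659862 to 693352), which promotes tubulin polymerisation, was at 8.61, 8.05 and 7.87 CPM with UK5099 and 0.921, 0.578 and 1.13 CPM with CTPI2 (log2 fold change 3.22 with SE 0.265, adjusted p 1.50e-09 by edgeR). All 3 were near 1 CPM in both the CTPI2 and the Sen(IR) libraries. The transporter gene SLC16A9 (ENSG00000165449, chromosome 10, 59650764 to 59736002), of the monocarboxylate transporter family, was at 29.9, 26.3 and 28.3 CPM with UK5099 and 4.82, 5.57 and 4.85 CPM with CTPI2 (log2 fold change 2.47 with SE 0.107, adjusted p 2.47e-14 by edgeR). MTARC1 (ENSG00000186205, chromosome 1, 220786352 to 220819659), an enzyme of the outer mitochondrial membrane, was at 33.2, 34.5 and 35.4 CPM with UK5099 and 7.32, 7.72 and 6.49 CPM with CTPI2 (log2 fold change 2.26 with SE 0.119, adjusted p 7.58e-13 by edgeR). MAOA (ENSG00000189221, chromosome X, 43654907 to 43746817), the mitochondrial enzyme that oxidises amine transmitters, was at 58.5, 65.2 and 72.8 CPM with UK5099 and 16.5, 20.2 and 18.4 CPM with CTPI2 (log2 fold change 1.84 with SE 0.119, adjusted p 2.83e-11 by edgeR).

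GUCY1B1 (ENSG00000061918, chromosome 4, 155758992 to 155807811), a subunit of the nitric oxide receptor guanylate cyclase, was at 61.6, 56.3 and 63.1 CPM with UK5099 and 15.3, 14.9 and 12.9 CPM with CTPI2 (log2 fold change 2.07 with SE 0.117, adjusted p 2.65e-12 by edgeR). PLCD1 (ENSG00000187091, chromosome 3, 38007496 to 38029642), a phospholipase C, was at 74.1, 67.3 and 62.5 CPM with UK5099 and 20.2, 20.5 and 18.7 CPM with CTPI2 (log2 fold change 1.78 with SE 0.0788, adjusted p 3.41e-14 by edgeR). The remaining genes named by size, FAM169A (ENSG00000198780, chromosome 5, 74777574 to 74866966; 43.33% of exon bases shared) and EPDR1 (ENSG00000086289, chromosome 7, 37920640 to 37951936), were higher by 2.21 and 1.87 on the log2 scale. For these genes the CTPI2 libraries lay near the Sen(IR) means, which were 13.4 ± 1.502 CPM for GUCY1B1, 18.1 ± 0.991 CPM for PLCD1 and 5.19 ± 0.184 CPM for SLC16A9.

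NRF2 is the transcription factor of the antioxidant response, and its targets included more genes higher than lower with UK5099. Of the 30 genes of this list, 10 were higher and 2 lower, and 15 had intervals within the fold limit (median 0.26). The share called was 40%, against 19.9% of all genes tested, of which 8.20% were higher and 11.7% lower. The list also holds NFE2L2, the gene of NRF2 itself, and KEAP1, the inhibitor of NRF2. HMOX1 (ENSG00000100292, chromosome 22, 35380361 to 35394214), the enzyme that degrades haem, was at 172, 182 and 183 CPM with UK5099 and 41.4, 38.5 and 38.4 CPM with CTPI2 (log2 fold change 2.18 with SE 0.0661, adjusted p 3.55e-17 by edgeR). OSGIN1, a growth inhibitor induced by oxidative stress, was at 63.05, 66.4 and 61.9 CPM with UK5099 and 22.6, 22 and 18.2 CPM with CTPI2 (log2 fold change 1.61 with SE 0.0957, adjusted p 6.15e-12 by edgeR). FTL, the light chain of the iron store ferritin, was at 8577, 9373 and 8568 CPM with UK5099 and 4420, 4311 and 4575 CPM with CTPI2 (log2 fold change 0.99 with SE 0.0521, adjusted p 6.38e-13 by edgeR). FTL held one of the 6 largest shares of the counts. The aldo-keto reductase AKR1B1 moved the other way (log2 fold change −1.31 with SE 0.0545, adjusted p 1.20e-14 by edgeR), and AKR1B10 was lower but not called without CTPI2 replicate 1 (edgeR adjusted p 0.0634). The letters TGACNNNGC of the antioxidant response element, which can overlap an AP-1 match, were in 15.2% of all windows, 15.3% of those of genes higher with UK5099, and 6 of 21 windows of this list (28.6%). Of the other motifs searched, the amino acid response letters TGATGNAA were in 1.73% of all windows, 3.01% of those of genes lower and 2.00% of those of genes higher with UK5099. The same shares were 50.2%, 42.6% and 46.1% for the xenobiotic response letters GCGTG and 1.12%, 0.526% and 1.44% for the sterol response letters TCACNCCAC.

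Other stress and metabolic lists had called genes as well, against 19.9% of all genes tested. The share was 54.3% in the ATF4 list, 13.6% in the folding list and 20% in the metallothionein and heat shock list. Of 35 ATF4 targets, serine synthesis and amino acid transport genes, 16 were lower and 3 higher. CHAC1, which degrades glutathione, was at 7.16, 5.41 and 5.23 CPM with UK5099 and 17.7, 20.3 and 17.5 CPM with CTPI2 (log2 fold change −1.65 with SE 0.106, adjusted p 2.40e-11 by edgeR), and PHGDH, the first enzyme of serine synthesis, was lower (log2 fold change −1.18 with SE 0.111, adjusted p 1.24e-08 by edgeR). The cystine importer SLC7A11, a target of both ATF4 and NRF2, was higher (log2 fold change 0.83 with SE 0.0712, adjusted p 2.82e-09 by edgeR), as was its partner chain SLC3A2 (log2 fold change 0.63 with SE 0.0542, adjusted p 3.44e-09 by edgeR). Endoplasmic reticulum folding genes showed 3 lower and 0 higher of 22, with 16 intervals within the fold limit. Of 15 metallothionein and heat shock genes, 3 were lower and 0 higher, although 2 were higher without CTPI2 replicate 2 and 1 without UK5099 replicate 3. All 3 were metallothioneins, which bind zinc and copper: MT2A was at 13.5, 13.9 and 10.7 CPM with UK5099 and 130, 118 and 123 CPM with CTPI2 (log2 fold change −3.28 with SE 0.110, adjusted p 2.08e-16 by edgeR), MT1E changed by −2.89 and MT1X by −2.34 on the log2 scale. Metallothionein genes are close copies of each other, so their reads could be split between them.

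Genes of lipid metabolism were called in both directions. Sterol genes had 4 higher and 1 lower of 31 (16.1% called, against 19.9% of all genes tested), with 21 intervals within the limit. Of 41 fatty acid genes, 4 were higher and 5 lower, and 20 intervals lay within the limit. The fatty acid importer CD36 was at 1.201, 0.742 and 0.698 CPM with UK5099 and 11.4, 9.04 and 11.1 CPM with CTPI2 (log2 fold change −3.58 with SE 0.189, adjusted p 7.47e-13 by edgeR), and ACSL5, which activates fatty acids, was lower too (log2 fold change −2.70 with SE 0.180, adjusted p 4.11e-11 by edgeR). FABP4, a fatty acid chaperone, was at 4.39, 5.60 and 3.99 CPM with UK5099 and 1.53, 1.44 and 1.47 CPM with CTPI2 (log2 fold change 1.65 with SE 0.227, adjusted p 3.56e-06 by edgeR). In the aryl hydrocarbon receptor pathway, 1 gene was higher and 1 lower of 8 (25% called). CYP1B1 (log2 fold change 1.06 with SE 0.114, adjusted p 1.02e-07 by edgeR) and CYP1A1 (log2 fold change −1.54 with SE 0.381, adjusted p 0.00229 by edgeR) are targets of the same receptor that moved in opposite directions. Of 33 histone acetylation enzymes and readers, 3 were higher and 1 lower (12.1% called), and 23 intervals lay within the fold limit. The deacetylase HDAC9 was the gene lower (log2 fold change −1.84 with SE 0.137, adjusted p 2.89e-10 by edgeR), while its relative HDAC5 (log2 fold change 0.76 with SE 0.110, adjusted p 7.51e-06 by edgeR) and the acetyltransferase KAT2B (log2 fold change 0.55 with SE 0.0723, adjusted p 1.77e-06 by edgeR) were higher. SIRT3, the other gene higher, missed the fold limit without UK5099 replicate 2 (0.462).

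Nuclear and mitochondrial genes of the respiratory chain did not share a pattern. Of 73 nuclear-encoded subunits, 0 were higher and 1 lower (1.37% called, against 19.9% of all genes tested). Of these 73, 46 had an unadjusted p under 0.05 by edgeR, and 62 had intervals within the fold limit. Their median was −0.21, with 62 of 73 log2 fold changes below 0. The gene called, ATP5MC1 (log2 fold change −0.52 with SE 0.0933, adjusted p 8.91e-05 by edgeR), missed the limit without CTPI2 replicate 1 (−0.490) or 3 (−0.488) or UK5099 replicate 1 (−0.472) or 3 (−0.481). The number called lower was 0 without CTPI2 replicate 1, UK5099 replicate 1 or UK5099 replicate 3, 2 without CTPI2 replicate 2 and 5 without UK5099 replicate 2. Of the 13 protein-coding genes of the mitochondrial genome, 3 were higher and 1 lower (median 0.29, 30.8% called).

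MT-ND6, the only one of the 13 on the minus strand, was at 2251, 2338 and 2319 CPM with UK5099 and 860, 891 and 678 CPM with CTPI2 (log2 fold change 1.51 with SE 0.0882, adjusted p 4.64e-12 by edgeR). MT-ND5, its neighbour on the other strand, was at 4374, 4308 and 4703 CPM with UK5099 and 2196, 2295 and 1770 CPM with CTPI2 (log2 fold change 1.10 with SE 0.0969, adjusted p 4.61e-09 by edgeR). CTPI2 replicate 3 was the lowest library for both. MT-CO2 was higher as well (log2 fold change 0.79 with SE 0.0709, adjusted p 5.89e-09 by edgeR). MT-CO3 was lower (log2 fold change −0.55 with SE 0.080, adjusted p 6.89e-06 by edgeR), but not past the fold limit without CTPI2 replicate 1 (−0.467), without UK5099 replicate 1 (−0.485) or when library totals alone set the scale (−0.490). Without CTPI2 replicate 1 the number higher was 5, with MT-ND4 at 0.54 and MT-CYB at 0.50 on the log2 scale. The transfer RNA gene MT-TP (ENSG00000210196, chromosome M, 15956 to 16023, minus strand) was at 167, 178 and 164 CPM with UK5099 and 24.6, 24.3 and 23.99 CPM with CTPI2 (log2 fold change 2.80 with SE 0.0759, adjusted p 5.58e-18 by edgeR), and the groups were far apart relative to their spread.

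A split by strand was made after these values were seen. Of 8 transfer RNA genes tested on the minus strand, 6 were higher and 1 lower (median 1.22), and of 10 on the plus strand 3 were higher and 1 lower (median 0.48). These genes are short and mostly low in count. They are shorter than the 150-base reads, so their counts, those of MT-TP included, need not come from mature transfer RNA. The source of these reads was not tested. Calls of MT-TA, MT-TS1, MT-TI and MT-TL2 were lost when some single libraries were left out: the edgeR adjusted p without CTPI2 replicate 3 was 0.131 for MT-TA and 0.145 for MT-TS1, without CTPI2 replicate 2 it was 0.0671 for MT-TI, and without UK5099 replicate 1 it was 0.126 for MT-TL2. Whether the libraries keep the strand is not given in the sources used here, so reads of overlapping genes on opposite strands cannot be told apart. The share of mitochondrial counts was also higher in every UK5099 library, and its part in these results was not tested.

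**Figure D5:**
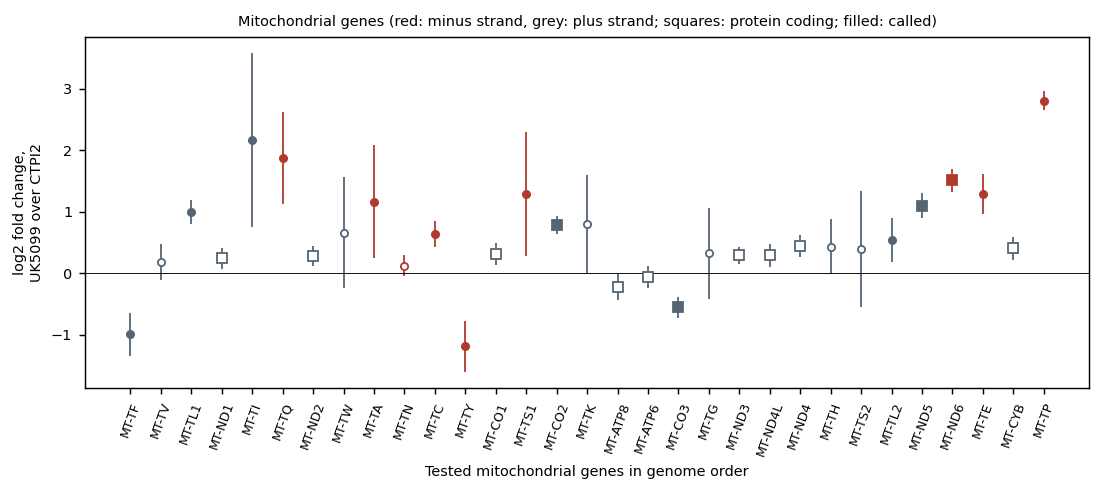
log2 fold change (UK5099 over CTPI2) with its 95% interval for the 31 tested genes of the mitochondrial genome, in genome order. Red is the minus strand and grey the plus strand. Squares are protein-coding genes, circles transfer RNA genes, and filled symbols are called. On the minus strand, MT-TP (2.80) and MT-ND6 (1.51) stand above 0 and MT-TY (−1.19) below. On the plus strand, MT-TI (2.16) stands above and MT-TF (−0.99) below.

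The most abundant transcripts differed modestly. Besides FTL, the largest shares of counts in the 6 libraries belonged to EEF1A1, MT-CO1, CD44, MT-ND4 and FN1. The elongation factor EEF1A1 was higher by less than the fold limit (log2 fold change 0.26 with SE 0.0455, adjusted p 5.80e-05 by edgeR), and the hyaluronan receptor CD44 lower by less than it (log2 fold change −0.27 with SE 0.0424, adjusted p 2.47e-05 by edgeR). For fibronectin (FN1) the libraries overlapped (−0.11, 95% interval −0.23 to 0.02, edgeR adjusted p 0.147).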

How the data were processed

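RNA was sequenced as paired ends of 150 bases. According to the study's methods and the submitters' processing notes, the authors used Trimmomatic 0.36 for trimming, STAR 2.5.2b for alignment to GRCh38, and featureCounts (Subread 1.5.2) for counting uniquely aligned reads in the exons of each gene. The deposited values are these counts, without normalization, and 0 columns belonged to other samples. Strandedness is not given in the sources used here. The counting unit is the whole gene, so overlapping genes and close copies may share or lose reads.

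A single edgeR 4.0.16 model (R 4.3.3) held all 12 libraries, grouped by their labels, with TMM scaling and no replicate term. The low-count filter was filterByExpr, and the quasi-likelihood F test was run on the contrast UK5099 minus CTPI2. Of 57500 genes, 16251 passed the filter on low counts, and these hold 99.9% of the counts of the 6 libraries. Benjamini-Hochberg adjustment ran over all of them. Calls needed both an adjusted p under 0.05 and a log2 fold change beyond 0.5 in either direction. The SE is the absolute log2 fold change divided by the square root of F, and intervals are 95% intervals from the t distribution. A gene with at most 3 counts in every library of 1 group was given as a bound against that floor, taken per library, which covers counting error only. CPM values use the TMM-scaled library sizes. On simulated counts for this contrast, 199 of 200 changed genes (99.5%) were recovered, with 4 false calls among 15838 genes. The data themselves gave 3236 calls, and the error rate among those calls was not tested. The share of changed genes recovered in the data themselves was not tested either. DESeq2 1.42.0, other scalings and filters, a replicate block, other limits, and leaving out each library were tried as alternatives.

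The comparison, the gene lists and the motifs were chosen with earlier results of these data known, so counts over a list describe it and are no test of it. Genes named were the 12 largest called changes in each direction (mean log2 CPM above 1, no overlap between groups, unique symbol), a fixed set of carrier, senescence and SASP genes, the 3 largest called members in each direction of each list, and the 6 genes with the largest share of counts. Fibroblast markers not called, and the mitochondrial genes and families outside this rule, were chosen after their values were seen. A few genes that this rule names are not reported here. Symbols were matched by identifier to GENCODE v44 on GRCh38 (56410 of 57500 found), which gave positions and shared exon bases. Promoter windows came from RefSeq on GRCh38.p14, the first-listed per gene, for 11647 of the tested genes.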

Additional observations from a re-analysis of the deposited data

How the results depend on the processing

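The number of genes called between the inhibitors, 3236, was within 1.5 times under every other test, scaling and filter: 3147 with DESeq2, 3241 with RLE scaling, 3257 with upper-quartile scaling, 3336 with library totals alone, 3374 with no filter on low counts and 3279 from the 6 libraries alone. DESeq2 shared 3135 genes and their direction with the edgeR calls. The share of higher calls was 41.2%, and 50.1% with library totals alone (1672 higher, 1664 lower), a setting that moved the median of all genes from 0.01 to 0.07 on the log2 scale. The limits mattered most: 1417 genes (419 higher, 998 lower) passed an absolute log2 fold change over 1, and 7227 (3429 higher, 3798 lower) passed with no fold limit. Leaving out 1 library gave 2943 to 3171 genes, 1160 to 1274 higher and 1783 to 1897 lower.

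With the replicate number as a block, 3204 genes were called (1319 higher, 1885 lower), 3182 of them shared with the fit without it. The deviations of same-numbered libraries from their group means correlated at −0.0145, −0.0134 and 0.0231, and not every library correlated best with its own number. With 3 libraries per group, these values cannot decide whether the numbers pair the samples.

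For 174 single genes in 13 alternative fits, 2203 of the values kept direction and side of the limit, 47 lost the call, 5 gained it and 7 changed sign. The sign changes were all in genes near 0 that were not called: with library totals alone MPC2 was at 0.0126 and MT-ATP6 at 0.0021, and when 1 library was left out CDKN1A ranged from −0.0074 to 0.0382, CDKN2A from −0.0171 to 0.304 and MT-ATP6 from −0.188 to 0.0392 on the log2 scale. MT-TS1 also lost its call with DESeq2 (adjusted p 0.0672), with no filter (0.102) and in the 6 libraries alone (0.0553). No alternative could turn on trimming, alignment or counting, which preceded the table.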

Other observations

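Further gene families were counted after the values were seen, as description and without a test of the family. Cytosolic ribosomal protein genes were nearly level: of 84 tested, 0 were higher and 1 lower with UK5099, and 81 had 95% intervals within the fold limit (median 0.0026). The gene lower was RPL22L1 (−0.67 on the log2 scale). Of 78 mitochondrial ribosomal protein genes, 1 was higher and 9 lower (median −0.19). Proteasome subunits, which degrade tagged proteins, had 8 lower and 0 higher of 46, with 44 of 46 log2 fold changes below 0 (median −0.26).

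In the monocarboxylate transporter family, whose members carry lactate, pyruvate and other small acids, 4 genes were higher and 4 lower of 11. Besides SLC16A9, the genes higher were SLC16A13 (log2 fold change 1.59 with SE 0.246, adjusted p 1.60e-05 by edgeR), SLC16A14 (log2 fold change 1.54 with SE 0.0821, adjusted p 8.39e-13 by edgeR) and SLC16A5 (log2 fold change 0.92 with SE 0.179, adjusted p 2.29e-04 by edgeR). Those lower were SLC16A12, SLC16A3, SLC16A7 and SLC16A4, between −1.33 and −0.55 on the log2 scale. SLC16A14 was at 55.4, 54.6 and 53.9 CPM with UK5099 and 17.98, 17.8 and 20.4 CPM with CTPI2, and the groups did not overlap. Of 42 carriers of the SLC25 family, to which SLC25A1 belongs, 4 were higher and 1 lower.

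Both tested subunits of the nitric oxide receptor guanylate cyclase were higher with UK5099. GUCY1A1, the partner of GUCY1B1, was at 4.02, 3.26 and 4.34 CPM with UK5099 and 1.49, 1.403 and 1.52 CPM with CTPI2 (log2 fold change 1.39 with SE 0.258, adjusted p 1.35e-04 by edgeR). Zinc finger protein genes had 38 higher and 9 lower of 442 (median 0.08), replication-dependent histones 7 higher and 1 lower of 30, HOX genes 1 higher and 0 lower of 20, potassium channels 4 higher and 12 lower of 43, and integrins 0 higher and 3 lower of 18. Against these counts, 8.20% of all genes tested were higher and 11.7% lower.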
